A study of Mus musculus with 2 samples.

Results

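Srgn, Nostrin, S100g, Aqp8, Ugt2b34, Hkdc1, Tfec and Tcf23 are 8 genes with some of the highest ratios of HDAC6 overexpression over wild type (WT) in mouse embryonic stem cells (ESCs), picked because they are not among the usual markers of endoderm. They were selected on that ratio, in these same arrays, so their own ratios are given as a description and with no test. They are 8 of the 16062 genes that passed a filter on dim probes, and 10 probes carry their names: S100g and Aqp8 have 2 probes each and the other 6 genes have 1. RNA of B6C3F1 ESCs labelled HDAC6 overexpression (Cy5) and of B6C3F1 ESCs labelled WT (Cy3), both at passage 26, shared each of 2 two-colour Agilent arrays. All cells were grown with serum and LIF on mitomycin C treated embryonic fibroblasts, so RNA of these feeder cells can be part of every sample. The labels name neither the construct nor the promoter behind the overexpression, and they do not say whether the cells are 1 clone. HDAC6 is a mainly cytoplasmic deacetylase that acts on alpha-tubulin among other proteins.

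The 8 genes do not form a known pathway. Srgn encodes serglycin, the core protein that carries glycosaminoglycan chains inside secretory granules, and a cDNA of its rat counterpart was first obtained from a yolk sac tumour. Nostrin encodes an F-BAR adaptor protein that binds endothelial nitric oxide synthase and takes part in its trafficking. S100g (calbindin-D9k) buffers calcium in the cytosol of absorbing epithelia, and Aqp8 is a water channel of gut, pancreas and liver. Ugt2b34 is an enzyme of the endoplasmic reticulum that joins glucuronic acid to lipophilic compounds, and Hkdc1 is a relative of the hexokinases, which phosphorylate glucose. Tfec and Tcf23 are helix-loop-helix transcription factors: Tfec belongs to the Mitf family and is known from macrophages, and Tcf23 lacks DNA binding of its own in mouse studies and holds back other factors of its class.

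Processed signals below are the authors' background-subtracted and dye-normalized intensities, and the fold taken from them is the ratio on which the genes were chosen. Log2 ratios were computed from the raw signals, with 50 units added to each channel after background correction, and averaged over both arrays, with the SD behind the ± sign (n = 2). A probe is called not well above background where the scanner software flags it so, and a gene has only a lower bound of its fold where its WT channel carries that flag on both arrays. Of the probes other than controls, between 69.3% and 69.4% were well above background in the HDAC6 overexpression channel and between 68.8% and 69.6% in the WT channel. Both arrays carry the dyes the same way round, so an effect of the dye stays in every ratio. The arrays are called biological replicates, but the sources used here leave unclear if separate cultures were harvested, and p-values then measure only the spread between these samples, which may be technical. For Hdac6 itself the arrays gave log2 ratios of 0.15 and -0.055 (mean 0.046 ± 0.14; limma adjusted p = 0.70), and 0.52 with each array centred on its median in place of loess (limma adjusted p = 0.0010). Where its probe lies relative to the introduced sequence is not given in the sources used here, so each direction refers to the channel as labelled.

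All 10 probes were well above background in the HDAC6 overexpression channel of both arrays, 6 of them also in the WT channel of both arrays, and 4 in neither WT channel. The processed ratio lay between 24.7-fold and 108-fold over the 10 probes and both arrays. The channels did not overlap: for each probe the lowest HDAC6 overexpression value was above the highest WT value. This follows from choosing the genes on a high ratio, and the share of all genes without overlap was not counted. A difference of at least 2-fold towards HDAC6 overexpression on both arrays was met by all 8 genes, as their choice required, and by 1.79% of the 16062 genes. In the limma test, 22.2% of all genes were higher at an adjusted p under 0.05. All 8 passed the filter on dim probes, Aqp8 and Ugt2b34 through the HDAC6 overexpression channel only.

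**Figure D1:**
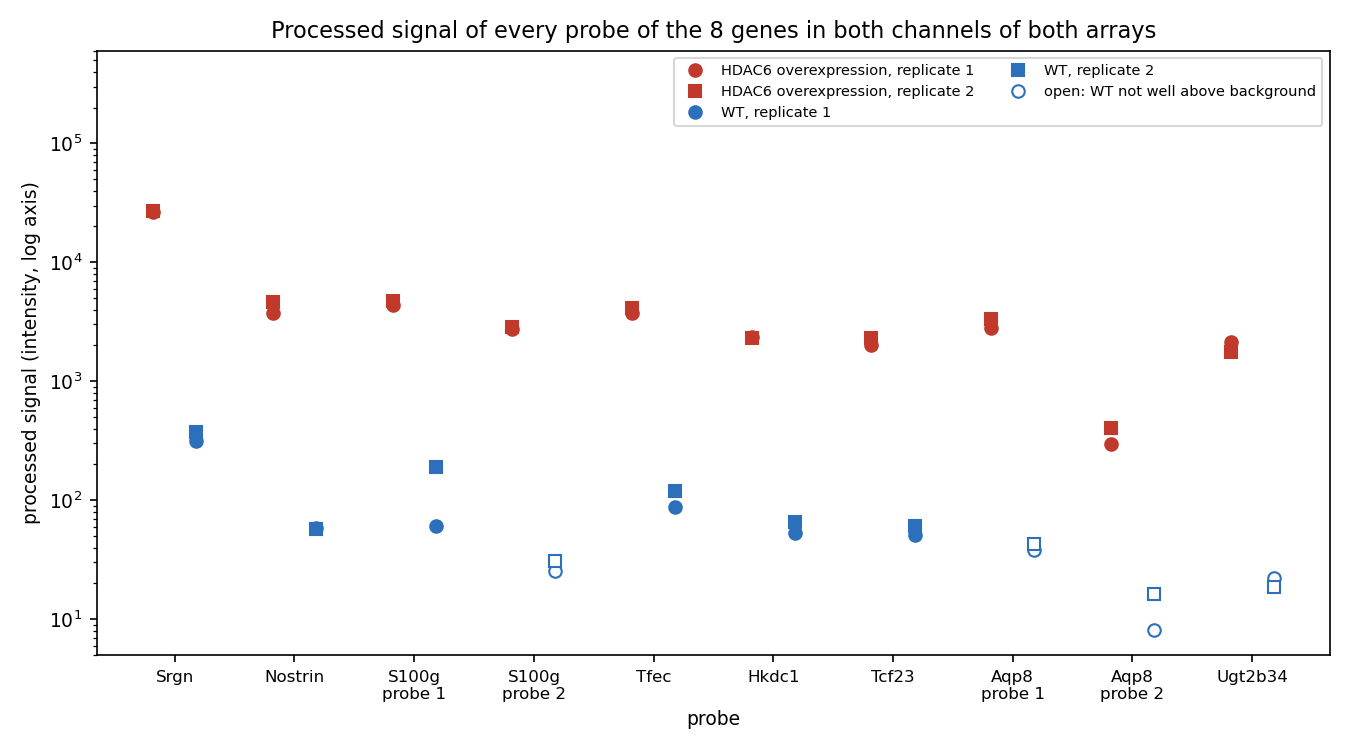
Processed signal (intensity, log axis) of the 10 probes of the 8 genes in the HDAC6 overexpression channel (red, left) and the WT channel (blue, right) of replicates 1 (circles) and 2 (squares), with open symbols for WT signals not well above background. The red points of each probe lie above its blue points, by between 24.7-fold and 108-fold within an array, and the open symbols mark both Aqp8 probes, probe 2 of S100g and Ugt2b34.

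Srgn had the highest mean log2 ratio among the 8 after normexp and loess; with the processed signals Ugt2b34, whose ratio is only a bound, had a higher one. Its processed signal was 26550 and 27033 in the HDAC6 overexpression channel of replicates 1 and 2, against 314 and 374 in the WT channel. Both WT signals were well above background, with raw WT signals 9.54 and 9.47 times the local background, so the ratio has a measured base on both arrays. The processed ratio was 84.5-fold and 72.4-fold, and the log2 ratio was 6.01 ± 0.11, a 64.4-fold difference. Srgn (chromosome 10) has a pair of annotated promoter windows in RefSeq (GRCm38.p6), each of 250 bases before and 50 after a transcript start. The upstream one, at chr10:62527396-62527695 on the minus strand, is printed because it held the most motif matches of any Srgn window: TATAAA at position -98 and CAGCTG at -59 and -1 from the start, in capitals.
Srgn: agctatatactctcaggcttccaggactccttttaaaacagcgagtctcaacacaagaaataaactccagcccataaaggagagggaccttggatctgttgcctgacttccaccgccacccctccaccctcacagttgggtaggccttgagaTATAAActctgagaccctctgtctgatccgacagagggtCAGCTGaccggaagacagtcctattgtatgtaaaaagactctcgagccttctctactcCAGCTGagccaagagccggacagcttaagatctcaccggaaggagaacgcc
The other Srgn window, at chr10:62507708-62508007 on the minus strand, held none of the motifs searched.

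Other proteoglycan core proteins were mostly higher with Srgn, at far smaller ratios. Of the 25 listed, 22 were measured. In the limma test 15 were higher (68.2%, against 22.2% of all genes) and 4 lower (18.2%, against 34.5%) in the HDAC6 overexpression channel. Their median log2 ratio was 0.57, against -0.074 over all genes. Cd44, the hyaluronan receptor, had 1.44 ± 0.31 (0.96 with its probes averaged), biglycan (Bgn) 1.38 ± 0.47, and the syndecan Sdc3 1.19 ± 0.36. Another syndecan, Sdc4, had 1.17 and 1.04 on the arrays. The neural chondroitin sulfate proteoglycans Bcan and Ncan were lower, at -1.37 ± 0.12 and -1.16 ± 0.047, as were Acan of cartilage at -0.89 ± 0.034 and Cd74 at -0.63 ± 0.26. Several of these core proteins are made by fibroblasts, and 1 of them, Dcn, is also on the list of feeder fibroblast markers, all 12 of which were higher here. The summed processed signal of those 12 was 188005 and 242555 in the HDAC6 overexpression channel, against 93393 and 85496 in the WT channel, and the part of feeder RNA in the proteoglycan counts was not tested. In bulk RNA, more cells of a type and more RNA per cell cannot be told apart.

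Serglycin carries chondroitin sulfate chains in many cells, and the enzymes that build them were more often higher than lower. Of 20 listed, 18 were measured, 6 were higher (33.3%, against 22.2% of all genes) and 2 lower (11.1%, against 34.5%). Their median log2 ratio was 0.13, against -0.074 over all genes. Csgalnact1, which starts the chondroitin chain, had 0.95 ± 0.19, the sulfotransferase Chst11 0.81 ± 0.35, and the polymerising factors Chpf2 and Chsy3 had 0.72 ± 0.24 and 0.42 ± 0.32. Xylt2, the xylosyltransferase that adds the first sugar to the core protein, was lower at -0.94 ± 0.15, and so was the linker enzyme B3galt6 at -0.38 ± 0.24.

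Nostrin gave processed signals of 3777 and 4635 in the HDAC6 overexpression channel, against 58.3 and 57.3 in the WT channel, both of these well above background. The WT values nearly coincided, and the larger ratio of replicate 2 came from the HDAC6 overexpression channel. The processed ratio was 64.8-fold and 80.8-fold, and the log2 ratio 5.13 ± 0.23, or 35.0-fold. Its promoter window (chr2:69135550-69135849, plus strand) held 1 match, CAAAGT at -161.

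Nostrin has an F-BAR domain, which bends membranes. Of the 19 other genes listed with one, all measured, 4 were higher (21.1%, against 22.2% of all genes) and 8 lower (42.1%, against 34.5%), with a median log2 ratio of -0.13. The higher ones were Srgap1 at 1.40 and 1.60 on the arrays, Srgap3 at 0.96 ± 0.037, Fnbp1 at 0.57 ± 0.0075 and Trip10 at 0.44 ± 0.10. Averaging all probes of a gene gave 0.60 for Srgap1, 0.53 for Srgap3 and -0.12 for Fnbp1. Pstpip2, Pacsin1, Fcho1 and Fcho2 were lower, between -1.15 ± 0.11 and -0.52 ± 0.10, and averaging probes gave -0.42 for Fcho1. Known partners of Nostrin were called no more often than all genes: of 7 measured of 8, 1 was higher (14.3%) and 2 lower (28.6%). Their median log2 ratio was 0.14, against -0.074 over all genes. Cav1 was higher at 0.83 ± 0.35, and the nitric oxide synthases Nos3 and Nos1 were lower at -1.16 ± 0.27 and -0.65 ± 0.080. Nos3, the endothelial enzyme that Nostrin binds, had processed signals of 1612 and 1377 in the HDAC6 overexpression channel, against 3222 and 3639 in the WT channel. The 2 genes thus differed from WT in opposite directions on both arrays. Among 12 endothelial markers, 10 were measured, 4 were higher and 4 lower, each 40%, against 22.2% and 34.5% of all genes. The higher ones were Esam at 0.89 ± 0.048, Flt1 at 0.69 ± 0.025, Cdh5 at 0.67 ± 0.13 and Vwf at 0.50 ± 0.19. On the lower side were Kdr at -1.05 ± 0.14 (-0.56 with its probes averaged), Emcn at -0.53 ± 0.025, Pecam1 at -0.50 ± 0.10 and Tek at -0.34 ± 0.049. The summed signal of the measured endothelial markers was 24204 and 23991 in the HDAC6 overexpression channel, against 22651 and 25177 in the WT channel. Tie1 and Erg did not pass the filter on dim probes.

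S100g differed most between the arrays. Its brighter probe gave 4366 and 4769 in the HDAC6 overexpression channel, against 61.0 and 191 in the WT channel. The HDAC6 overexpression signals were alike on the arrays, and the WT signal of replicate 2 was the one that stood apart, with a raw value of 370 against 196 in replicate 1. The processed ratio was therefore 71.5-fold on replicate 1 and 25.0-fold on replicate 2, and the log2 ratio 4.51 ± 0.61, a 22.7-fold difference. The dimmer probe gave 2743 and 2852 in the HDAC6 overexpression channel, against 25.5 and 30.8 in the WT channel, which was not well above background on either array. Its bound was 30.6-fold with the WT floor at the lowest signal well above background, and 24.0-fold with it at the 95th percentile of dim probes. Its processed ratios of 108-fold and 92.7-fold differed less between the arrays than those of the brighter probe. The promoter window of S100g (chrX:162964550-162964849, minus strand) is printed because it holds matches to 3 of the motifs searched: the SOX motif ATTGTT at -135, the FOXA motif TGTTTAC on the opposite strand at -47 and TATAAA at position 0, in capitals.
S100g: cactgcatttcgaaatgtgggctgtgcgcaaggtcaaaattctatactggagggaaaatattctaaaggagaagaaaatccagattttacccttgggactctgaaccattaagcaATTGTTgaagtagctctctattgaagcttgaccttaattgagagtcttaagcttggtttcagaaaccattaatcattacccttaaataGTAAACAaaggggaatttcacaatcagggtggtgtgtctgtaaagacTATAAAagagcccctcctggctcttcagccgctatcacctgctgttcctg

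S100g is a textbook target of vitamin D in the gut, and the genes of vitamin D and calcium transport were not higher as a group. Of 11 others, 7 were measured, 2 were higher (28.6%, against 22.2% of all genes) and 4 lower (57.1%, against 34.5%). Their median log2 ratio was -0.35. The vitamin D receptor Vdr had 440 and 582 in the HDAC6 overexpression channel, against 272 and 253 in the WT channel, a log2 ratio of 0.78 ± 0.29. Its partner Rxra was lower at -0.44 ± 0.0043, a call that was lost when probes were averaged (limma adjusted p = 0.11), and the vitamin D hydroxylases Cyp2r1 and Cyp27b1 were lower at -0.89 ± 0.021 and -0.63 ± 0.042. Cyp24a1, the classic target that breaks the hormone down, did not pass the filter on dim probes. The calcium channel Trpv6 stayed at -0.044 ± 0.028, and the calcium pump Atp2b1 was lower at -0.35 ± 0.080. The calcium binder Calb2 was called higher on the strength of 1 array, at 0.076 on replicate 1 and 1.60 on replicate 2, and was not called with the processed signals (limma adjusted p = 0.073).

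The brighter of the Aqp8 probes gave 2775 and 3329 in the HDAC6 overexpression channel, against 38.3 and 42.7 in the WT channel. Neither WT signal was well above background, so only a bound can be given. It was 30.3-fold with the lowest floor, which is the ratio to the probe's own WT signal. With the floor at the 95th percentile of dim probes it was 28.1-fold. The dimmer probe gave 295 and 404 in the HDAC6 overexpression channel, against 8.07 and 16.4 in the WT channel. Its bound was 4.82-fold with the lowest floor and 3.72-fold with the other. The probes had the same direction on both arrays and log2 ratios of 4.92 ± 0.11 and 2.56 ± 0.011, each of them limited by a WT signal near background. CACGTG is an E-box read by the Mitf family, to which Tfec belongs, and was in 7.15% of all 32851 windows. The promoter window of Aqp8 (chr7:123462044-123462343, plus strand) is printed because it holds CACGTG at -75, in capitals. Binding by Tfec was not tested.
Aqp8: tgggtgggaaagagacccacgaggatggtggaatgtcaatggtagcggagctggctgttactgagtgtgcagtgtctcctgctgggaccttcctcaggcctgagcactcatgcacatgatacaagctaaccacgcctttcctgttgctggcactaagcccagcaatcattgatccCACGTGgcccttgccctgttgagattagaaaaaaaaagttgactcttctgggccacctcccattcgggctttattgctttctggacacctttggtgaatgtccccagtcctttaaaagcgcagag

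Other aquaporins were called in both directions, at shares near those of all genes. Of 11, 7 were measured, 2 were higher (28.6%, against 22.2% of all genes) and 3 lower (42.9%, against 34.5%). Their median log2 ratio was 0.0022. Aqp1 had 1434 and 1686 in the HDAC6 overexpression channel, against 336 and 460 in the WT channel, a log2 ratio of 1.76 ± 0.15, and Aqp3, which also passes glycerol, had 0.70 ± 0.055. Aqp11, Aqp6 and Aqp5 were lower at -0.76 ± 0.13, -0.74 ± 0.17 and -0.38 ± 0.084, and averaging probes gave -0.32 for Aqp6 and ended the call of Aqp5 (limma adjusted p = 0.33). Intestinal markers did not all accompany S100g and Aqp8. Of 10, 7 were measured, 4 were higher (57.1%, against 22.2% of all genes) and 2 lower (28.6%, against 34.5%). The higher ones were led by the homeobox genes Cdx1 at 1.47 ± 0.91 and Cdx2 at 0.99 ± 0.32, with Cdh17 not well above background in WT. Vil1 and Slc5a1 were lower at -0.59 ± 0.11 and -0.44 ± 0.11, and the enterocyte genes Fabp1, Fabp2 and Alpi did not pass the filter. The summed signal of the measured markers was 3185 and 6076 in the HDAC6 overexpression channel, against 2355 and 2465 in the WT channel (without Cdx1, 1561 and 1884, against 1484 and 1553 in WT), and the part of such cells in the values of S100g and Aqp8 was not tested.

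The processed signal of Ugt2b34 was 2149 and 1755 in the HDAC6 overexpression channel, against 22.2 and 18.7 in the WT channel. The WT signals were not well above background on either array, so only a bound can be given, and it depends on the floor set for WT. It was 22.1-fold with the lowest floor, which is the ratio to the probe's own WT signal. With the floor at the 95th percentile of dim probes it was 19.3-fold. The processed ratios were 96.6-fold and 93.9-fold. The log2 ratio of Ugt2b34 was 4.47 ± 0.22. The promoter window (chr5:86906888-86907187, minus strand) is printed because, unlike those above, it held none of the motifs searched and no CpG.
Ugt2b34: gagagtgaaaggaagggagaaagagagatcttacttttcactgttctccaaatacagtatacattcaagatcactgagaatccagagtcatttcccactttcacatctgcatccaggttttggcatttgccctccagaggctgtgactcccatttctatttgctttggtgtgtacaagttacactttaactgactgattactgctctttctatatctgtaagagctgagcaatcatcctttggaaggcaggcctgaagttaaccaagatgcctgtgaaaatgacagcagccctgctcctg

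Ugt2b34 lies in a cluster of related Ugt2 genes on chromosome 5. No other gene of that cluster with a named probe gave a signal well above background, and Ugt2a2 has no named probe. The array carries 9 named probes of 8 other Ugt2a and Ugt2b genes (Ugt2a1, Ugt2a3, Ugt2b1, Ugt2b35, Ugt2b36, Ugt2b37, Ugt2b38 and Ugt2b5), and 0 of them was well above background in any channel of either array. Their processed signals ran from 8.14 to 38.8 in the HDAC6 overexpression channel and from 8.16 to 30.9 in the WT channel, with log2 ratios between -0.41 and 0.32. The genes of this cluster are alike in sequence, so a probe may bind RNA of more than 1 of them, which was not tested. Outside the cluster, Ugt1a6b was higher at 1.37 ± 0.21 on its brighter probe, with 0.53 on the other, and the Ugt1a genes share exons, so that RNA of another Ugt1a gene may be read there. Ugt3a1 was also higher at 0.45 ± 0.16, and Ugt8a, which makes galactosylceramide, was lower at -1.16 ± 0.056. These were the 3 measured of 21 other family members, 14 of which have a named probe.

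The genes listed for the supply of UDP-glucuronic acid, the sugar donor of Ugt2b34, were not higher as a group. Of these 5 genes, all measured, 1 was higher (20%, against 22.2% of all genes) and 3 lower (60%, against 34.5%). Ugdh, which makes the donor, was higher at 0.30 ± 0.047, and Slc35d1 at 0.19 ± 0.078 was not called. Whether each listed transporter carries this donor was not tested. Ugp2, Slc35d2 and Slc35b1 were lower at -0.68 ± 0.055, -0.93 ± 0.27 and -0.47 ± 0.050, and Slc35b1 turned to 0.0063 with median centring. Hepatocyte markers were not higher: of 10, 5 were measured, 0 were higher (against 22.2% of all genes) and 2 lower (40%, against 34.5%). Alb, Serpina1a, Cyp3a11, Tdo2 and Cps1 did not pass the filter. The summed signal of the measured ones was 1024 and 947 in the HDAC6 overexpression channel, against 1257 and 1414 in the WT channel.

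Hkdc1 gave 2335 and 2313 in the HDAC6 overexpression channel, against 52.5 and 66.2 in the WT channel, all well above background. The HDAC6 overexpression signals were nearly equal and the smaller ratio of replicate 2 came from its WT signal. The processed ratio was 44.5-fold and 35.0-fold, and the log2 ratio 4.29 ± 0.14, or 19.5-fold. Its promoter window (chr10:62422408-62422707, minus strand) held CAGCTG at -23. Of its relatives, the hexokinases Hk1 and Hk3 were higher at 0.43 ± 0.046 and 0.32 ± 0.060, and Hk2 did not pass the threshold at -0.15 ± 0.21. Hk1 had 13129 and 14155 in the HDAC6 overexpression channel, against 9005 and 10311 in the WT channel.

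Of the transcription factors, Tfec gave 3780 and 4086 in the HDAC6 overexpression channel, against 86.9 and 119 in the WT channel, all well above background. The processed ratio was 43.5-fold on replicate 1 and 34.4-fold on replicate 2. After normexp and loess the log2 ratios were 4.47 and 4.46 (SD 0.0092), or 22.1-fold. Its promoter window (chr6:16898392-16898691, minus strand) is printed because it was the only one of the 9 with a GATA motif, TGATAA at -81, in capitals.
Tfec: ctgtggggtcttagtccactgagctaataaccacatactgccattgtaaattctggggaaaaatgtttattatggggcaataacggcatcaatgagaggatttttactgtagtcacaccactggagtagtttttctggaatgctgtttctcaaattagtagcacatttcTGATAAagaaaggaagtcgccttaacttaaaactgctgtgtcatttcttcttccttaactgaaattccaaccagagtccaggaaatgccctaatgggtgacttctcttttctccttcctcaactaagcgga

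All 3 relatives of Tfec were higher with it, where 22.2% of all genes were. Their median log2 ratio was 0.36. Tfeb, a regulator of lysosome genes, had 4471 and 6161 in the HDAC6 overexpression channel, against 3047 and 3048 in the WT channel, a log2 ratio of 0.75 ± 0.34. Mitf had 0.36 ± 0.022 (0.24 with its probes averaged) and Tfe3 0.26 ± 0.13, and the call of Tfe3 was lost with an offset of 0 (limma adjusted p = 0.057) and when its probes were averaged (0.16). Markers of macrophages and myeloid cells, which commonly express Tfec and Srgn, were higher as well. Of 13, 12 were measured, 11 were higher (91.7%, against 22.2% of all genes) and 0 lower (against 34.5%). Their median log2 ratio was 0.58. Csf1r had 1.18 ± 0.023 (0.78 with its probes averaged), Tyrobp 1.05 ± 0.21, Lyz2 0.93 ± 0.15 and Laptm5 0.72 ± 0.091, while Ptprc, the pan-leukocyte marker, was at 0.021 ± 0.080 and Spi1 was not well above background in WT. Their summed signal was 54765 and 68956 in the HDAC6 overexpression channel, against 36916 and 57665 in the WT channel. Itgam made up between 53.4% and 70.6% of these sums, and without it they were 24467 and 32161 in the HDAC6 overexpression channel, against 14084 and 16963 in the WT channel. The part of such cells in the values of Srgn and Tfec was not tested. Of 9 mast cell markers, 5 were measured, 2 were higher (40%, against 22.2% of all genes) and 0 lower (against 34.5%). The higher ones were Hdc at 0.56 ± 0.28 and Gata2 at 0.38 ± 0.0066. Kit at 0.18 ± 0.020, Mcpt4 at 0.11 ± 0.019 and Tpsb2 at -0.19 ± 0.59 did not pass the threshold. The granule and receptor genes Cpa3, Cma1, Fcer1a and Ms4a2 did not pass the filter. The mast cell markers summed to 6161 and 6957 in the HDAC6 overexpression channel, against 5375 and 5742 in the WT channel.

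Tcf23 gave 2021 and 2295 in the HDAC6 overexpression channel, against 51.0 and 60.2 in the WT channel, all well above background. The channels moved in parallel across the arrays, so the ratios nearly agreed. The processed ratio was 39.6-fold and 38.1-fold, and the log2 ratio 4.24 ± 0.022, or 18.9-fold. Its promoter window (chr5:30968427-30968726, plus strand) held none of the motifs searched. Of 17 related helix-loop-helix genes, 15 were measured, 8 were higher (53.3%, against 22.2% of all genes) and 1 lower (6.67%, against 34.5%). Their median log2 ratio was 0.33. Id3, an Id protein that like Tcf23 holds back factors of this class, had 23795 and 31798 in the HDAC6 overexpression channel, against 14761 and 11449 in the WT channel, and log2 ratios of 0.67 and 1.52. Msc, Twist2 and Hand1 had 0.86 ± 0.18, 0.59 ± 0.38 and 0.57 ± 0.11, and Tcf15 was lower at -1.05 ± 0.037. The part of feeder RNA in these counts was not tested.

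**Figure D2:**
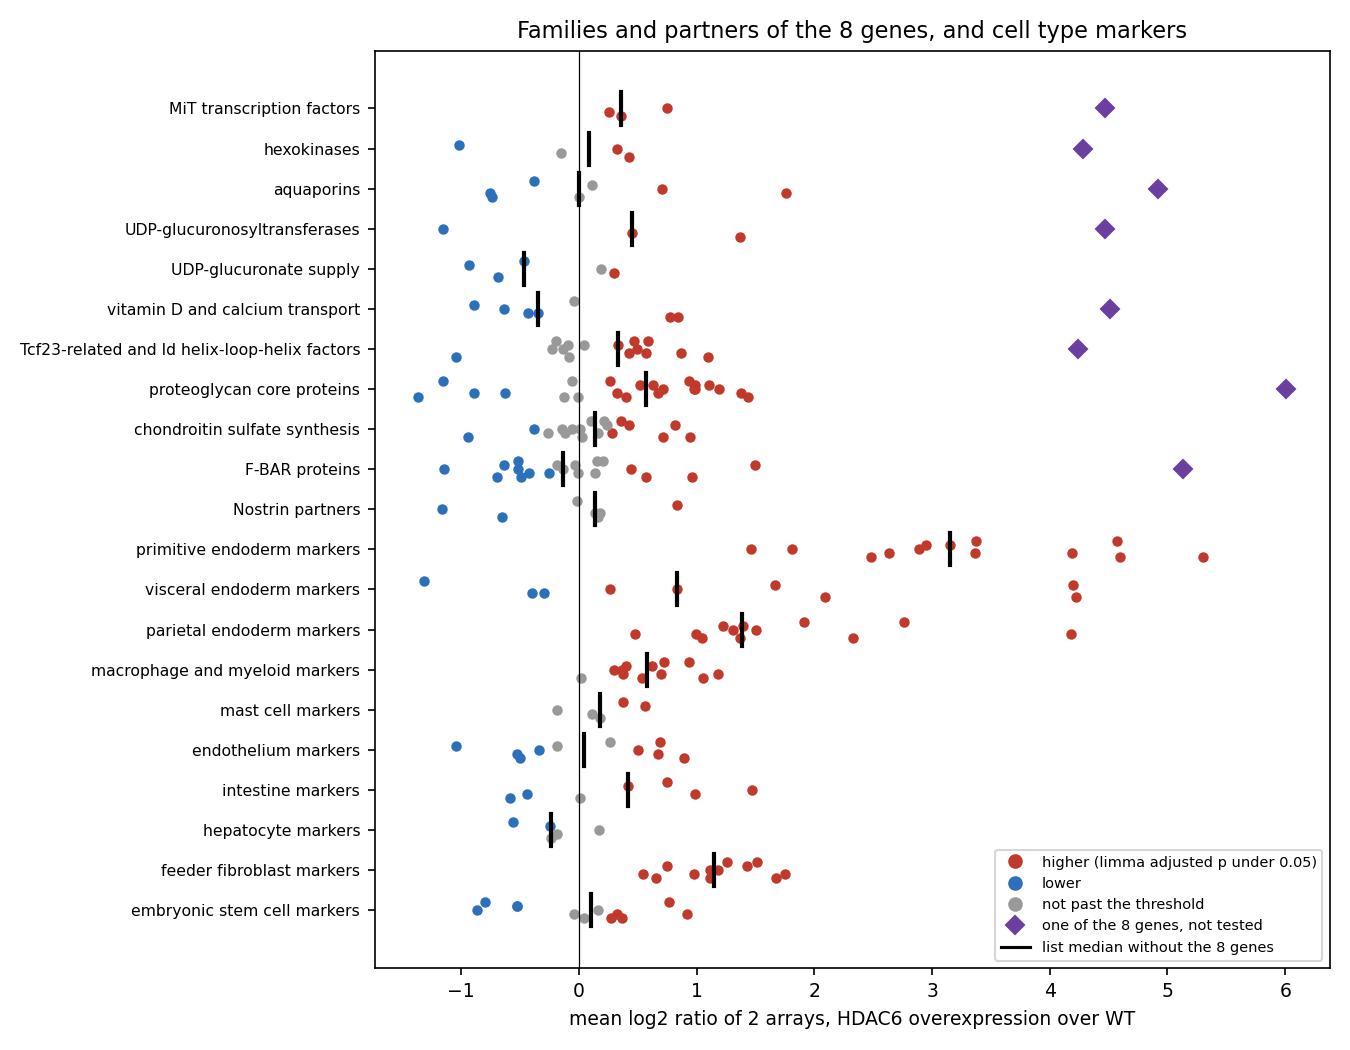
Mean log2 ratio of the 2 arrays, HDAC6 overexpression over WT, for each measured gene of the families and partners of the 8 genes and of the cell type markers, coloured by the limma call (red higher, blue lower, grey neither), with the list medians as black lines and the 8 genes as purple diamonds. The diamonds lie between 4.24 and 6.01, and the medians of the 11 family and partner lists between -0.47 and 0.57.

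Over the families and partners together, 110 of 144 genes were measured, 46 were higher and 29 lower, that is 41.8% and 26.4% of them, against 22.2% and 34.5% of all genes. Their median log2 ratio was 0.14. Past 2-fold on both arrays were 6 of them on the higher and 5 on the lower side, where 1.79% and 2.83% of all genes lay. Proteoglycan core proteins made up 15 of the 46 higher genes, and the part of feeder RNA in them was not tested. The lists were chosen with earlier results of these data known, so these shares are a description only.

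Markers of endoderm stood among the 8 in the order of mean log2 ratio after normexp. Srgn, Nostrin, S100g, Tfec, Hkdc1 and Tcf23 took ranks 1, 3, 7, 9, 10 and 12 there. Aqp8 and Ugt2b34 fell at 4.92 and 4.47, but with WT not well above background their values have no exact rank. Between them stood the endocytic receptor Cubn at rank 2 (5.30 ± 0.032), the transcription factors Gata4 and Foxa2 at ranks 5 and 6 (4.60 ± 0.091 and 4.57 ± 0.055) and Nxf7, an RNA export factor, at rank 11 (4.26 ± 0.10). Just below Tcf23 came Ttr, Spink1, Amn, Lama1 and Pax6os1, at 4.22 ± 0.49, 4.20 ± 0.26, 4.19 ± 0.0074, 4.18 ± 0.17 and 4.11 ± 0.16, Ttr with a WT signal not well above background. The means from rank 7 to rank 17 lay within the SD of S100g (0.61) of one another, so their order is not resolved either. The log2 ratio was larger on replicate 1 for 5 of the 8 genes and larger on replicate 2 for 3. Their SD ran from 0.0092 to 0.61 with a median of 0.12, against a median of 0.091 over all genes.

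The pattern likeness of a gene was taken as the distance between pairs of log2 ratios, replicate 1 and replicate 2, over these 2 arrays. Cubn was nearest to both Srgn (1.01) and Nostrin (0.31), and the next were Nostrin for Srgn (1.29) and Aqp8 for Nostrin (0.32). Tfec was nearest to Foxa2 (0.15) and Gata4 (0.21), Hkdc1 to Lama1 (0.15) and Spink1 (0.17), and Tcf23 to Amn (0.076) and Nxf7 (0.080). For S100g the nearest were Ugt2b34 (0.39) and Ttr (0.43). With 2 arrays this likeness says little more than that the genes had ratios of a similar size. Primitive endoderm markers, which include Cubn, Gata4, Foxa2 and Amn, were higher for 13 of 13 genes, with a median log2 ratio of 3.16 and summed signals of 102576 and 105660 in the HDAC6 overexpression channel, against 9172 and 10560 in the WT channel. Parietal endoderm markers were higher for 12 of 12, with a median of 1.38 and sums of 191539 and 210829 against 61749 and 70166 in WT. Visceral endoderm markers were less uniform: of 12, 9 were measured, 6 were higher (66.7%, against 22.2% of all genes) and 3 lower (33.3%, against 34.5%). Their sums were 20904 and 19356 in the HDAC6 overexpression channel, against 6596 and 7392 in the WT channel. Without Spink1 these sums were 6293 and 5544, against 5972 and 6613 in WT. Ttr, Spink1, Cer1 (2.09 ± 0.30, WT not well above background) and Apob (1.67 ± 0.11, or 0.88 with its probes averaged) were on the higher side, and Rbp4 (-1.31 ± 0.34), Hhex (-0.40 ± 0.0051) and Afp (-0.30 ± 0.019) on the lower. Embryonic stem cell markers, which check the labelled cell type, were bright in both channels. Their sums were 206508 and 223777 in the HDAC6 overexpression channel, against 226340 and 243924 in the WT channel. Of 12, 5 were higher (41.7%, against 22.2% of all genes) and 4 lower (33.3%, against 34.5%). Whether endoderm cells in the culture account for the ratios of the 8 genes was not tested.

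After loess, the genes beside the 8 on the chromosomes were called about as often as other genes or less. The 3 measured genes on each side of each gene, in RefSeq gene order, came to 44 genes outside the 8, of which 8 were higher and 10 lower, 18.2% and 22.7%, against 22.2% and 34.5% of all genes, with a median log2 ratio of -0.020. With median centring 16 of them were higher, and the higher calls over all genes rose from 3559 to 4877, so the statement above holds for loess only. At least 2-fold higher on both arrays was 1 of the 44, where 1.79% of all genes were so: Lrp2 beside Nostrin on chromosome 2. Lrp2 encodes megalin, an endocytic receptor that works with cubilin, and had 13783 and 14357 in the HDAC6 overexpression channel, against 3498 and 4344 in the WT channel (1.81 ± 0.13; limma adjusted p = 5.08e-07). Spc25, measured between Nostrin and Lrp2, was at -0.19 ± 0.16 and not called, and G6pc2, Abcb11 and Dhrs9 of the same stretch were not well above background in any channel. Stk39 and B3galt1, on the other side of Nostrin, were lower at -0.69 ± 0.050 and -0.74 ± 0.063.

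Srgn and Hkdc1 are themselves within 3 measured genes of one another on chromosome 10. The genes between them, Supv3l1 and Vps26a, were at 0.071 ± 0.030 and 0.14 ± 0.0013 and not called; with median centring both were called higher, at 0.30 and 0.40 (limma adjusted p = 0.014 and 0.0028). Kifbp, on the far side of Srgn, was lower at -0.52 ± 0.13. On the far side of Hkdc1 lay its relative Hk1, given above, and Tacr2, which was higher at 0.40 ± 0.13 but turned to -0.15 when its probes were averaged. In either setting the measured genes between Srgn and Hkdc1 were under 2-fold different. Beside Tfec, the caveolin genes Cav2 and Cav1 were higher at 0.74 ± 0.15 and 0.83 ± 0.35, with Tes between them and Tfec at -0.0042 ± 0.17. Beside Ugt2b34, the protease genes Tmprss11d and Tmprss11f were lower at -0.98 ± 0.089 and -0.40 ± 0.021, and Cabs1 and Smr3a were higher at 0.53 ± 0.38 and 0.35 ± 0.23. Around S100g, Txlng was lower at -0.65 ± 0.097 (-0.39 with its probes averaged) and Car5b higher at 0.35 ± 0.32. Around Tcf23, Khk was lower at -0.87 ± 0.094, and around Aqp8, Lcmt1 was lower at -0.33 ± 0.12, a call lost with median centring (limma adjusted p = 0.17). Arhgap17, also beside Aqp8, was at 0.13 ± 0.16 and not called. With median centring it was higher at 1.04 (limma adjusted p = 6.41e-06), and with the processed signals it was at -0.22 and not called.

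**Figure D3:**
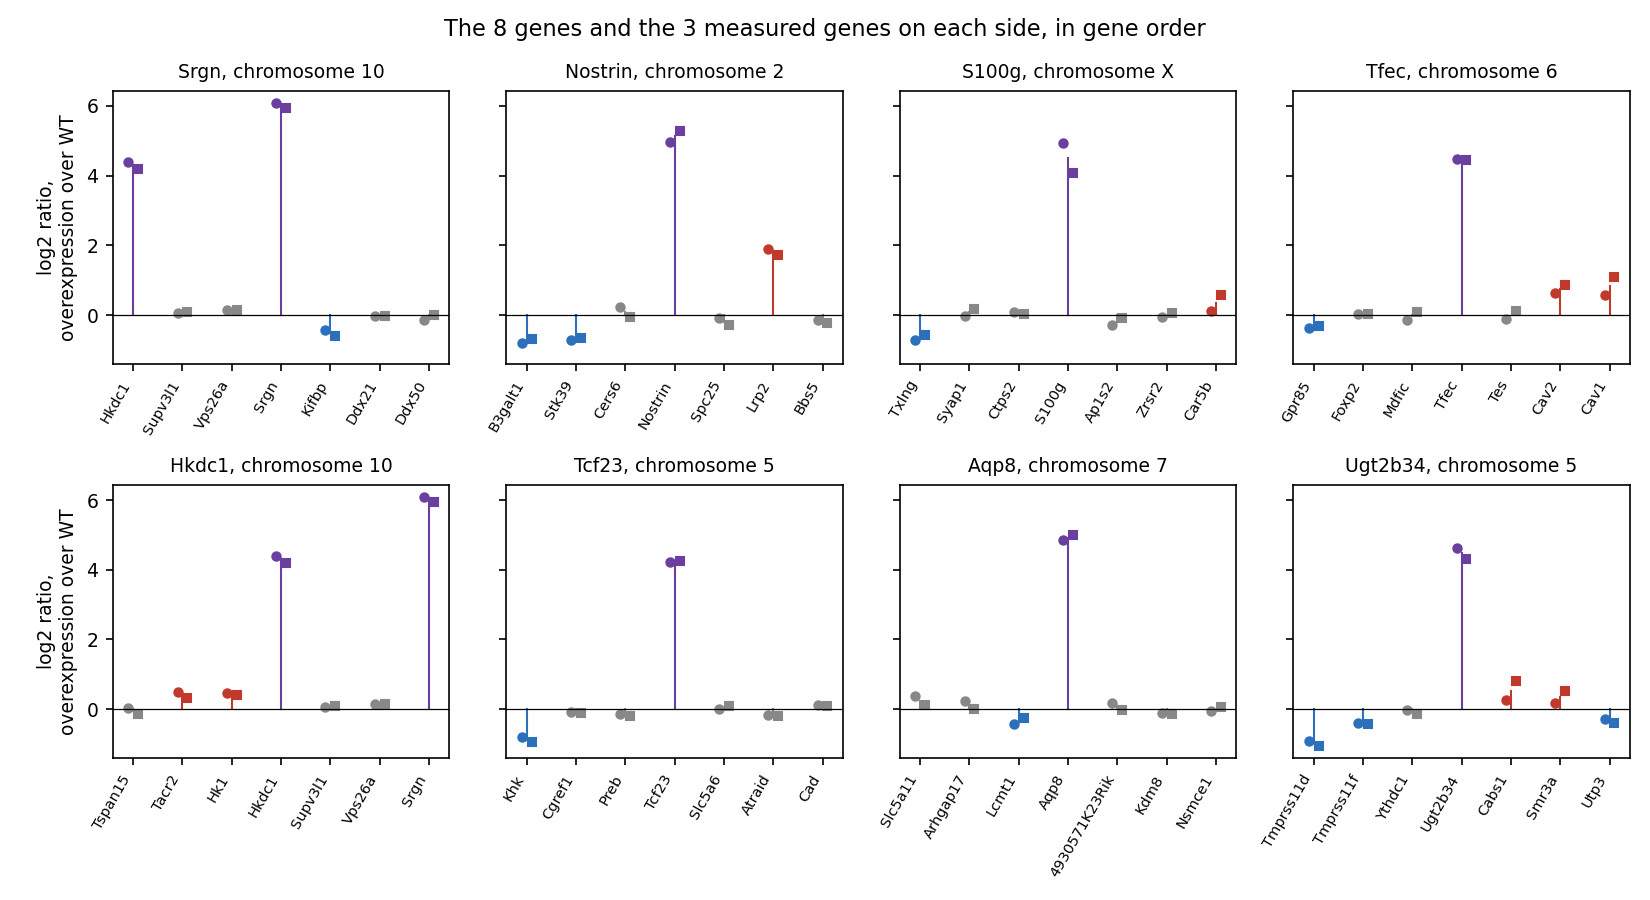
Log2 ratio, HDAC6 overexpression over WT, of each of the 8 genes (purple) and of the 3 measured genes on each side in gene order, with replicate 1 as circles, replicate 2 as squares, and the mean as a line (red higher, blue lower and grey neither in the limma test). Apart from Srgn and Hkdc1, which fall in one another's windows, the tallest neighbour is Lrp2 at 1.81.

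The promoter windows had no motif in common. In the 9 windows, which cover 8 of 8 genes, each motif was searched on both strands. For GATA factors the letters were AGATAA, or TGATAA as the other form, which differ in the first letter only. For FOXA factors they were TGTTTAC, for SOX factors ATTGTT, for a partial site of HNF1 GTTAAT, and for a partial site of HNF4 CAAAGT. The E-box of the Mitf family was CACGTG, that of other helix-loop-helix factors CAGCTG, and the TATA box TATAAA. No motif was in more than 2 windows, and AGATAA and GTTAAT were in 0. CAGCTG was in the windows of Srgn and Hkdc1 and in 16.3% of all 32851 windows, and TATAAA in those of Srgn and S100g and in 13.6%. Among all windows TGATAA was in 9.05%, TGTTTAC in 3.65%, ATTGTT in 10.7%, CAAAGT in 14.4% and CACGTG in 7.15%, each of them in 1 of the 9 windows here, while AGATAA was in 11.2% and GTTAAT in 7.10%. No match overlapped another in these windows, and a match is a stretch of letters, not a shown binding site. The windows were poor in CpG: they held from 0 (Ugt2b34) to 9 (Hkdc1), against a median of 13 over 21263 windows of protein-coding genes, and all 9 lay below that median.

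The size of the ratios moved with the treatment of the background. The log2 ratio of the processed signals exceeded the one after normexp by between 0.28 (Srgn) and 2.11 (Ugt2b34). Srgn had 6.01 after normexp with an offset of 50, 6.14 with an offset of 0 and 6.29 from the processed signals. Ugt2b34 had 4.47, 5.07 and 6.57 in the same order, over a WT signal that gives no measured base. Nostrin had 5.13, 5.60 and 6.18, and Aqp8 4.92, 5.48 and 6.23. For Tfec, Hkdc1 and Tcf23 the processed signals gave 5.27, 5.30 and 5.28, and for S100g 5.40. The bounds from the processed signals were at least 72.8-fold for the brighter Aqp8 probe, 8.28-fold for the dimmer Aqp8 probe and 46.5-fold for Ugt2b34. All 8 stayed at or above 3.74 on the log2 scale in each setting tried, the lowest being Aqp8 with its probes averaged.

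**Figure D4:**
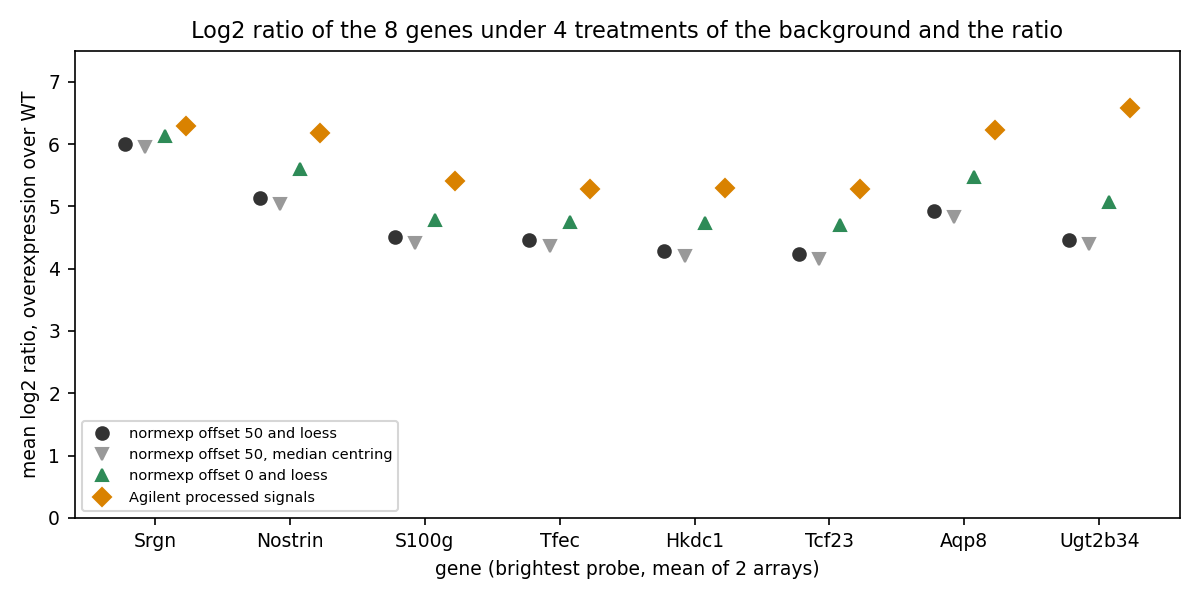
Mean log2 ratio of the 2 arrays, HDAC6 overexpression over WT, of the brightest probe of each gene under 4 treatments: normexp with offset 50 and loess (black), the same with median centring (grey), offset 0 (green) and the Agilent processed signals (orange). The orange points are the highest for each gene, by 0.28 over the black point for Srgn and by 2.11 for Ugt2b34.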

How the data were processed

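RNA of HDAC6 overexpression (Cy5) and WT (Cy3) ESCs was compared on 2 two-colour Agilent arrays on 1 slide. Per the file headers, the authors read the scans with Agilent Feature Extraction 11.5.1.1. The deposited files hold raw median intensity values of spots and local background, and processed intensity values that were background-subtracted and dye-normalized. A deposited log10 ratio sets processed Cy5 against processed Cy3, with a deposited p-value of the software's error model, which was not used. The deposited series table holds log2 ratios that run as WT over overexpression, found by setting them against the scanner values (r = 1, column medians -0.0074 and 0.062), and whether they were centred further is unknown.

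Raw medians, used because mean signals are not among the columns analysed here, were corrected with normexp (offset 50) and normalized within each array by loess in limma 3.58.1 (R 4.3.3), and control or outlier-marked spots got weight 0. Of 55681 probes, 26762 had 1 symbol through their accession in RefSeq (GRCm38.p6), 0 had several and 28919 had none. A gene was its brightest probe, kept where that probe was well above background in 1 same channel on both arrays (16062 genes). Log2 ratios were tested against 0 with limma (two-sided, Benjamini-Hochberg, 1 residual and 8.71 prior degrees of freedom), called at an adjusted p under 0.05, and tested on simulated data. A bound sets the HDAC6 overexpression mean against, per array, the higher of the probe's own WT signal and the lowest signal of probes well above background, after loess and Aquantile; it is open to dye bias.

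The members, gene lists and motifs were chosen with earlier results of these data known. Named genes are the 8, the 2 nearest in likeness to each with a measured ratio, the 3 measured genes on each side, up to 4 per direction and list past the threshold (otherwise 2), genes ranked between and just below the 8, and Hdac6; others named among the markers were picked for being defining ones or absent. 1 listed gene is not reported here. The list symbol Spink3 was read as Spink1. Promoter sequences are RefSeq's, of build GRCm38.p6, and the array grid is of another build, so no probe coordinates are given. Alternatives were the processed signals, median centring, offset 0, no or a strict filter, the mean over probes, outlier-marked spots kept, each array alone, the series table, other floors and limma's treat at 1.5-fold.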

Additional observations from a re-analysis of the deposited data

How the results depend on the processing

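The 8 genes were higher in the HDAC6 overexpression channel in each setting tried that kept them; the strict filter dropped Aqp8 and Ugt2b34. Leaving out an array gave single values with no test, since no residual degree of freedom was left. Genes at least 2-fold higher on both arrays numbered 287, against 488 with the processed signals or the series table, 513 with median centring and between 328 and 627 with 1 array alone. Those at least 2-fold lower numbered 455, against 706 with the processed signals or the series table and between 547 and 716 with 1 array alone. Limma's treat at 1.5-fold called 547 higher and 835 lower. With median centring 4877 genes were higher and 4811 lower, so the share of calls that were higher was 50.3%, against 39.1% with loess, and 16 rather than 8 neighbours of the members were higher. With a call in at least 1 of the settings, the sign turned with median centring for Ddx21 (0.39), Slc35b1 (0.0063), Utp3 (8.0e-05) and Ythdc1 (0.34), and with the mean over probes for Fnbp1 (-0.12), Foxp2 (-0.24) and Tacr2 (-0.15); the cause was not tested. Of the genes that the naming rule covers, 11 lost and 11 gained a call under some setting, and 12 turned sign without a call in either. The floor at the 95th percentile of dim probes gave bounds of at least 28.1-fold for the brighter Aqp8 probe and 3.72-fold for the dimmer one. It gave 19.3-fold for Ugt2b34 and 24.0-fold for the dimmer S100g probe. Each ratio already pairs both groups within an array. WT signals not well above background leave only bounds for Aqp8, Ugt2b34 and 1 S100g probe.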
